A study of Homo sapiens with 4 samples.

Results

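Platelets carry most of their secreted proteins in alpha-granules, which are made in the megakaryocyte and filled with proteins that it synthesises or takes up. The genes described here are 9 alpha-granule cargo genes, chosen by name, with earlier results of these data known, and matched by NCBI gene number among the 25702 genes counted: VWF, THBS1 and MMRN1 (adhesive proteins), SELP (a membrane receptor of the granule), F13A1 and F5 (coagulation factors), SRGN (the proteoglycan that packs granule contents), CLU (a secreted chaperone) and TGFB1 (a growth factor). Their expression was compared between K562 cells that received RUNX1::ERG on the LeGO-iG2 plasmid, a fusion that keeps the DNA-binding domains of RUNX1 and ERG, and K562 cells that received the empty LeGO-iG2 plasmid, with 2 biological replicates in each group. K562 is an established chronic myeloid leukemia line with erythroid features, labelled as untreated in both groups. Expression came from a plasmid in a transfected population, not from a selected clone, and the labels give neither the time to RNA extraction nor a sort for transfected cells. The study's methods give a general time after transfection for assays of expression, without naming the sequencing.

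An alpha-granule forms from multivesicular bodies and the trans-Golgi network, helped by NBEAL2, VPS33B and VIPAS39, and its contents are released when the granule fuses with the platelet membrane. Released von Willebrand factor (VWF) and thrombospondin-1 (THBS1) bridge platelets to each other and to the vessel wall, P-selectin (SELP) moves to the surface and binds leukocytes, and latent TGF-beta 1 is stored for later activation. None of these genes belongs to megakaryocytes alone: VWF, SELP and MMRN1 are also made by endothelial cells, and F13A1, THBS1, SRGN and TGFB1 by monocytes and macrophages. In K562 cells, which are known to take on megakaryocytic features under phorbol ester, such genes are used as signs of that lineage.

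Whole transcriptome sequencing gave between 59695387 and 82352144 counted reads per library. Between 66.7% and 68.9% of the counts from 1 to 10 in a library were even. If a sequenced fragment was counted through each of its mates, the independent fragments are fewer than the counts and the counting intervals given here are too narrow. The transfected parts separated the groups as labelled, with 4 and 4 counts of ERG in the empty vector libraries against 80443 and 27218 in RUNX1::ERG replicates 1 and 2. Of the K562 markers, the embryonic and fetal globins HBE1 and HBG2 were abundant and CDKN2A, which K562 has lost, had 0 counts in all 4 libraries. Values are given as raw counts or as normalised CPM, the count brought to a common library size with TMM (trimmed mean of M-values) factors. Differences are log2 fold changes of RUNX1::ERG against the empty vector, called where the adjusted p of edgeR's quasi-likelihood test is under 0.05 over the 15394 genes that passed its expression filter.

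In K562 cells expressing RUNX1::ERG, VWF, MMRN1 and THBS1 rose from a low or nearly absent level by log2 fold changes of 5.76, 5.41 and 3.65, and TGFB1, already abundant, rose by 0.92. SRGN and CLU had higher values in both RUNX1::ERG libraries but did not pass the threshold. SELP was found with RUNX1::ERG alone, at up to 18 counts, and F13A1 and F5 stayed at 6 counts or fewer. Of the 9 genes, 6 passed the filter and 4 of them were called, each of them higher, where 3.64% of all tested genes were called higher, 1.15% lower and 4.79% either way. VWF and MMRN1 passed the filter through the RUNX1::ERG libraries alone, so their presence among the tested genes already depends on a difference, and the median log2 fold change of 2.44 over the 6 tested genes, against 0 over all tested genes, is a description of those 6. In 7 of the 9 genes both RUNX1::ERG libraries lay above both empty vector libraries, including the 6 tested ones. This order was seen in 25.1% of all tested genes.

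**Figure D1:**
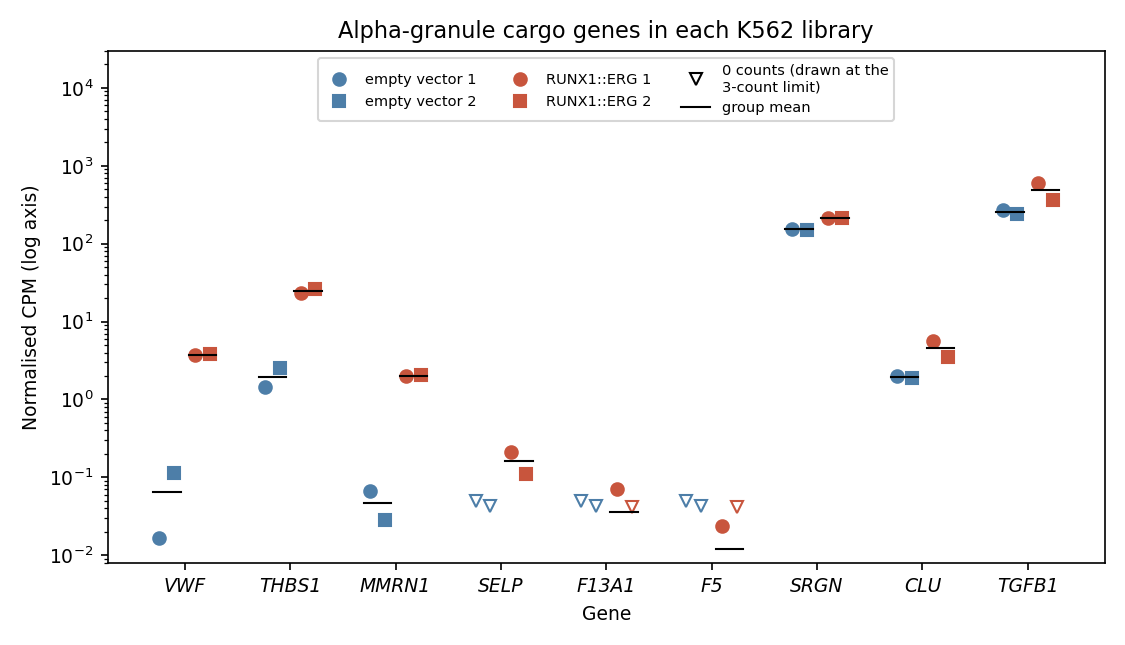
Normalised CPM (log axis) of the 9 cargo genes in each of the 4 K562 libraries, with empty vector in blue, RUNX1::ERG in red, lines at the group means and open triangles for libraries with 0 counts drawn at the limit of 3 counts. VWF, THBS1 and MMRN1 are separated widely between the groups, SRGN, CLU and TGFB1 less so, and F13A1 and F5 stay near the limit of 3 counts.

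VWF (NCBI gene 7450, minus strand of chromosome 12, 6058043 to 6233936 on GRCh37), the largest adhesive protein of the granule and the plasma carrier of factor VIII, had 1 and 8 counts in the empty vector libraries and 311 and 277 in the RUNX1::ERG libraries. In normalised CPM this was 0.065 ± 0.0685 (SD, n = 2) against 3.77 ± 0.116 (SD, n = 2). Both empty vector libraries were close to no expression and the level in RUNX1::ERG replicate 1 was 0.957 times that in replicate 2, so the groups were far apart. The difference was 5.76 on the log2 scale (SE 0.58, adjusted p = 4e-04, edgeR). The ratio of the summed counts, scaled for library size, was 54.7 with an exact 95% interval of 28.6 to 120 for counting error only. Few empty vector reads set the denominator, and the log2 fold change was 5.03 without empty vector replicate 1 and 7.68 without empty vector replicate 2. VWF has a pseudogene copy, VWFP1, and whether reads are shared with it was not tested.

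MMRN1 (NCBI gene 22915, plus strand of chromosome 4, 90800683 to 90875780) encodes multimerin-1, which is stored in alpha-granules and binds factor V there. Its counts were 4 and 2 with the empty vector and 167 and 150 with RUNX1::ERG, that is 0.0474 ± 0.0269 against 2.03 ± 0.0748 normalised CPM (SD, n = 2 each). As for VWF, a gene with almost no reads became detectable at about the same level in both RUNX1::ERG libraries. The difference was 5.41 on the log2 scale (SE 0.57, adjusted p = 0.00049, edgeR), and 4.90 and 6.08 without empty vector replicates 2 and 1.

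THBS1 (NCBI gene 7057, plus strand of chromosome 15, 39873280 to 39891667) encodes thrombospondin-1, which binds the platelet receptors CD36 and CD47 and can activate latent TGF-beta. Unlike VWF and MMRN1 it was expressed in the empty vector libraries, with 87 and 176 counts (1.44 and 2.50 normalised CPM). It reached 1972 and 1883 counts with RUNX1::ERG (23.4 and 26.2 normalised CPM). The lowest RUNX1::ERG library was thus far above the highest empty vector library, and the difference was 3.65 on the log2 scale (SE 0.29, adjusted p = 7.3e-05, edgeR), a rise of 12.5-fold. FSIP1, whose gene model overlaps the end of THBS1 on the other strand, had 25, 26, 46 and 35 counts and was not called (log2 fold change 0.40, adjusted p = 0.77, edgeR). The antisense THBS1-AS1 and the intronic THBS1-IT1 also overlap THBS1, and whether reads were assigned by strand is not given.

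SELP (NCBI gene 6403, minus strand of chromosome 1, 169558087 to 169599431) encodes P-selectin, the defining membrane protein of the alpha-granule. It had 0 counts in both empty vector libraries and 18 and 8 counts in the RUNX1::ERG libraries, and did not pass the filter. Setting each empty vector library at 3 counts, the mean level was at least 3.52-fold higher with RUNX1::ERG, and the error of the 26 counts is not in this bound. The bound would be smaller if fragments were counted through both mates. The number of reads is too small for a firm statement: without the filter the adjusted p was 0.049 by edgeR and it was 0.11 by the DESeq2 Wald test. Its ligand gene SELPLG had 308 and 780 counts with the empty vector and 1315 and 925 with RUNX1::ERG, with no call (log2 fold change 0.81, adjusted p = 0.21, edgeR).

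The windows around the annotated starts of these genes (250 bases before to 50 after, RefSeq, GRCh38.p14, 5′ to 3′ on the strand of the gene) are shown because ERG and RUNX1 bind short DNA motifs, for 3 genes that were called and for SELP. A RefSeq window was found for 6 of the 9 genes, with VWF, SRGN and CLU missing. Capitals mark every match of the ETS motif AGGAAG or CGGAAG and of the RUNX motif TGTGGT on either strand, and no 2 of the marked matches overlap. The windows of SELP (chr1:169630075-169630374, minus strand), THBS1 (chr15:39580829-39581128, plus strand), the second listed start of MMRN1 (chr4:89894604-89894903, plus strand) and TGFB1 (chr19:41353873-41354172, minus strand) read as follows.
SELP: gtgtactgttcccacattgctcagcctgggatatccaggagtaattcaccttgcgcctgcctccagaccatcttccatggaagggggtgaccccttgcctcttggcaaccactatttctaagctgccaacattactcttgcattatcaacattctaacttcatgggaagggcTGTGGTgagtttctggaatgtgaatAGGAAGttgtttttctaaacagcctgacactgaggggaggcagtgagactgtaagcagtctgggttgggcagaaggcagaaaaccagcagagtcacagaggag
THBS1: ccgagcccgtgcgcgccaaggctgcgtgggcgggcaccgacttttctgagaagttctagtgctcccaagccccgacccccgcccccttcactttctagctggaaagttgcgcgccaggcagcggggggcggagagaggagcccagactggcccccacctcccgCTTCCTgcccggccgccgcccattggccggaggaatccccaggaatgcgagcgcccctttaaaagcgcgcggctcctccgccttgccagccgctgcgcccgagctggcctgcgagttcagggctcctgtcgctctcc
MMRN1: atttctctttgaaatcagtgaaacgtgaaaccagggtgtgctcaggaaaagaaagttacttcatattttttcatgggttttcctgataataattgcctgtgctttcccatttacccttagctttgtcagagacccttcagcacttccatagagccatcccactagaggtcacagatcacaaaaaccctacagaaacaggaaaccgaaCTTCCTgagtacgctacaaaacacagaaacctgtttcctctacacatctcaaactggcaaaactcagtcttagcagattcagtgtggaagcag
TGFB1: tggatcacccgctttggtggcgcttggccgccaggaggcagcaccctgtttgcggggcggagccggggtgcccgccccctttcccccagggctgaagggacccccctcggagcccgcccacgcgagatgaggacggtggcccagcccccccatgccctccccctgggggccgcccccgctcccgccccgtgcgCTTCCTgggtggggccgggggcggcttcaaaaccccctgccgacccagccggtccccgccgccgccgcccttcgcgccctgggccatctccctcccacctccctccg

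Each of these 4 windows held 1 ETS match, on the minus strand of the gene in THBS1, MMRN1 and TGFB1 and on its plus strand in SELP. SELP was the window with both kinds of match, a RUNX match starting 78 bases and an ETS match starting 53 bases before the annotated start. Of the windows not shown, that of F13A1 held 2 ETS matches, that of F5 held 1 RUNX match, and that of the first listed start of MMRN1 held neither. The MMRN1 window shown was the one with a match, so an ETS match in each of the 4 rests in part on that choice. The GATA motif AGATAA or TGATAA, not marked in capitals, was found in SELP and in the second MMRN1 window. Such matches are common: among all 35116 RefSeq windows, 46.9% held an ETS match, 13.1% a RUNX match, 16.3% a GATA match and 5.85% both an ETS and a RUNX match. These matches describe the letters of the windows, and no binding was measured.

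The coagulation factors of the list were not detected at a level that could be compared. F13A1 (NCBI gene 2162, chromosome 6, 6144317 to 6321246), the transglutaminase subunit that cross-links fibrin and lies mainly in the platelet cytoplasm, had 6 counts in RUNX1::ERG replicate 1 and 0 in the other 3 libraries. F5 (NCBI gene 2153, chromosome 1, 169481189 to 169555826), the cofactor of factor Xa and the direct neighbour of SELP, had 2 counts in RUNX1::ERG replicate 1 and 0 elsewhere. Up to 3 counts are allowed by a library with none, that is 0.0498 and 0.0425 normalised CPM in the empty vector libraries and 0.0417 in RUNX1::ERG replicate 2. A difference below such levels was therefore not detectable at this depth. With RUNX1::ERG, F13A1 reached 0.0712 and F5 0.0237 normalised CPM, both in replicate 1. Without the filter their adjusted p-values were 0.62 for F13A1 and 0.80 for F5 (edgeR).

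SRGN (NCBI gene 5552, plus strand of chromosome 10, 70847859 to 70864561) encodes serglycin, the proteoglycan core protein that retains PF4 and other basic proteins in granules of many blood cells. It was abundant in every library, with 155 and 151 normalised CPM under the empty vector and 211 and 214 under RUNX1::ERG. The groups did not overlap and the spread within each group was small, but the log2 fold change of 0.47 (95% interval 0.15 to 0.80) did not pass the threshold (adjusted p = 0.10, edgeR).

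CLU (NCBI gene 1191, minus strand of chromosome 8, 27454434 to 27472217) encodes clusterin, an extracellular chaperone present in platelets and in many other cells. It was at 1.99 and 1.89 normalised CPM with the empty vector and at 5.67 and 3.49 with RUNX1::ERG. Both RUNX1::ERG libraries were higher, the first by more than the second. The log2 fold change of 1.24 (95% interval 0.51 to 1.97) missed the threshold (adjusted p = 0.061, edgeR), and it passed without the filter (0.0045) and with the DESeq2 Wald test (0.012). Without RUNX1::ERG replicate 1 it was 0.85 (adjusted p = 0.52, edgeR).

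TGFB1 (NCBI gene 7040, minus strand of chromosome 19, 41807492 to 41859827) encodes TGF-beta 1, of which platelets are a main store. It had 16199 and 16850 counts with the empty vector and 50253 and 26411 with RUNX1::ERG, or 269, 239, 596 and 367 normalised CPM. The groups did not overlap, and the RUNX1::ERG libraries stood further from each other than the second of them did from the empty vector. The difference was 0.92 on the log2 scale (SE 0.21, adjusted p = 0.034, edgeR). RUNX1::ERG replicate 1 decided the call: without it the log2 fold change was 0.53 and the adjusted p 0.28. TMEM91, whose gene model overlaps the 5′ part of TGFB1 on the other strand, was at 2.82, 2.67, 6.08 and 3.42 normalised CPM and was not called (adjusted p = 0.24, edgeR). The overlapping models of CCDC97 and HNRNPUL1 were at -0.13 and -0.15 on the log2 scale, also without a call.

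**Figure D2:**
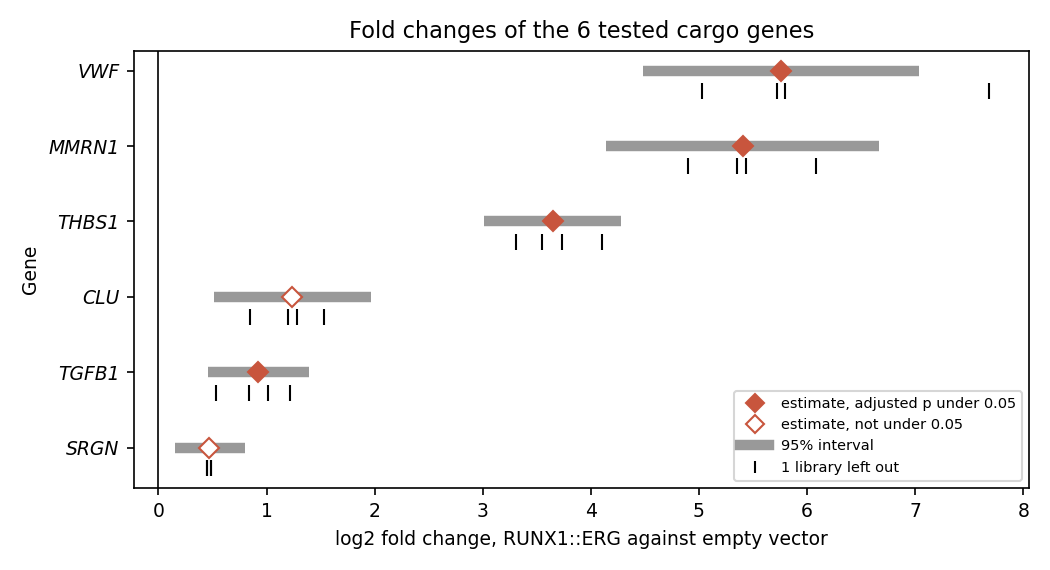
Log2 fold change of the 6 tested cargo genes in RUNX1::ERG against empty vector K562 cells, with the estimate (diamond, filled where called), its 95% interval (grey bar) and the estimates with 1 library left out (ticks). All estimates lie above 0, those of VWF and MMRN1 move with the empty vector library left out, and that of TGFB1 falls to 0.53 without RUNX1::ERG replicate 1.

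The RUNX1::ERG libraries differed in their reads of ERG and RUNX1, in which plasmid and genomic transcripts are not separated, and the cargo genes fell into those that differed likewise and those that did not. The normalised level in replicate 1 was 2.52 times that in replicate 2 for ERG and 1.96 times for RUNX1, and it was 1.62 times for TGFB1 and also 1.62 times for CLU. For VWF, THBS1, MMRN1 and SRGN it was between 0.893 and 0.985. GC content moved with the same difference: the median log2 ratio of replicate 1 to replicate 2 was -0.19 in the bin of tested genes lowest in GC and 0.46 in the highest. It was 0.33 in the bin that holds TGFB1 (transcript GC 63.6%) and 0.04 in that of CLU (52.5%), against 0.70 for either gene. After a correction for GC content, added after the data were seen, TGFB1 was at 0.84 (adjusted p = 0.016, edgeR) and CLU at 1.23 (adjusted p = 0.056, edgeR). With 1 library at each level, the amount of fusion and any other difference between these libraries cannot be told apart.

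**Figure D3:**
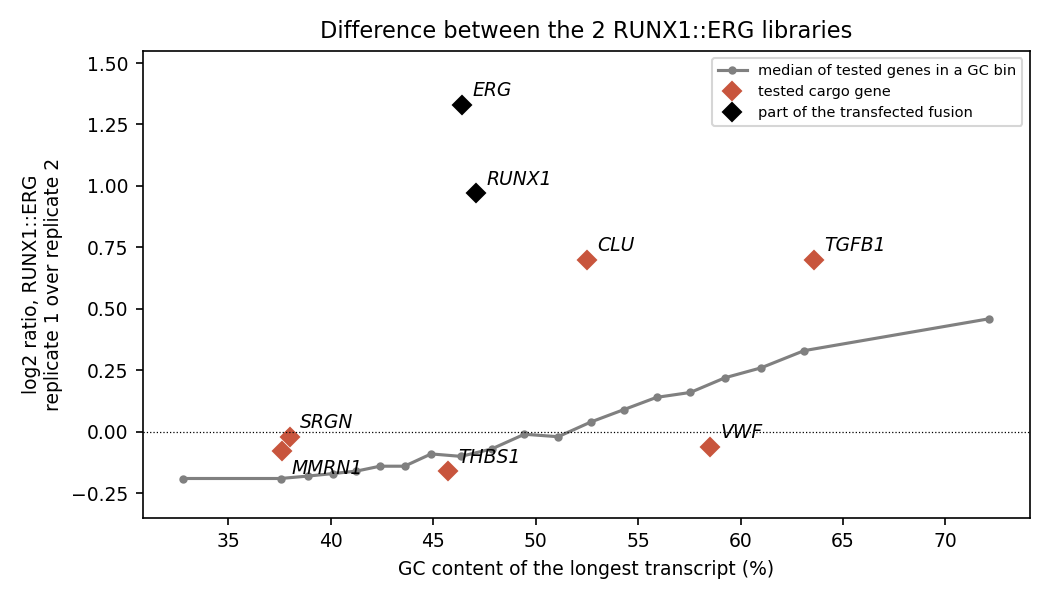
Log2 ratio of normalised CPM in RUNX1::ERG replicate 1 over replicate 2 against GC content of the longest transcript (%), for the 6 tested cargo genes (red), ERG and RUNX1 (black) and the median of the tested genes in 20 GC bins (grey). TGFB1 and CLU lie at 0.70, above the grey line, SRGN and MMRN1 lie above it near 0, THBS1 lies slightly below it, and VWF lies below it at -0.06.

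Levels of different genes were compared per length, as normalised CPM per kilobase of annotated exon. With the empty vector the order of the means was SRGN (126), TGFB1 (77.8), CLU (0.309), THBS1 (0.215), MMRN1 (0.0086) and VWF (0.00626), followed by SELP, F13A1 and F5 at 0 counts. The last named pair with reads overlapped, VWF from 0.0016 to 0.0109 and MMRN1 from 0.00515 to 0.0121. With RUNX1::ERG the order was SRGN (175), TGFB1 (148), THBS1 (2.71), CLU (0.729), MMRN1 (0.369), VWF (0.363), SELP (0.0465), F13A1 (0.00781) and F5 (0.00127). TGFB1 (113 to 183) then spanned SRGN (173 to 176), and VWF (0.355 to 0.371) and MMRN1 (0.359 to 0.379) could not be separated. THBS1 and CLU changed places between the groups. Per length, VWF and MMRN1 thus stayed far below SRGN and TGFB1 also with RUNX1::ERG.

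Receptors and partners of the cargo proteins were compared from a list of 27 genes, of which 22 passed the filter. With RUNX1::ERG 7 of the 22 were called higher and 0 lower, beside 3.64% and 1.15% of all tested genes, and the median difference of the 22 was 0.81 on the log2 scale. ITGA2B and ITGB3, the chains of the integrin that binds VWF and fibrinogen, were at 4.22 (adjusted p = 5.5e-06, edgeR) and 4.64 (adjusted p = 1.7e-06, edgeR). Of the other VWF receptor, GP1BB had 0 counts in all 4 libraries and GP9 and GP5 at most 8 in any. GP1BA, the chain that binds VWF, had 62, 44, 158 and 71 counts with no call (log2 fold change 0.80, adjusted p = 0.42, edgeR). Of the THBS1 receptors, CD47 rose from 40.4 and 42.5 to 97.2 and 103 normalised CPM (log2 fold change 1.27, adjusted p = 0.0012, edgeR), while CD36 had 32, 91, 62 and 62 counts and a log2 fold change of -0.20 (adjusted p = 0.90, edgeR). F2R, the thrombin receptor PAR1, was called at 1.48, and PROCR, the endothelial protein C receptor, at 1.06. Without RUNX1::ERG replicate 1 PROCR was at 0.89 (adjusted p = 0.28, edgeR).

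Of the proteins that hold TGF-beta 1 in its latent form, LTBP1 and LRRC32 were called and LTBP3 was not (log2 fold change 0.76, adjusted p = 0.16, edgeR). LTBP1, which binds the latent complex in the matrix, rose from 81.2 and 78.3 to 183 and 203 normalised CPM (log2 fold change 1.27, SE 0.15, adjusted p = 0.0011, edgeR). LRRC32, which encodes GARP and tethers latent TGF-beta 1 to the cell surface, rose from 10 and 16 counts to 74 and 80 (log2 fold change 2.32, SE 0.52, adjusted p = 0.031, edgeR), but its adjusted p was 0.12 and 0.16 without RUNX1::ERG replicates 1 and 2. FURIN, the protease that cleaves the precursor, and the receptor TGFBR1 had log2 fold changes of 0.46 (adjusted p = 0.11, edgeR) and 0.65 (adjusted p = 0.059, edgeR). TGFBR2 was at 108 counts or fewer and TGFBR3 at -0.23, with no call for either. Of the TGFB1 paralogs, TGFB2 had 18, 13, 7 and 4 counts and TGFB3 a log2 fold change of -0.05, neither called.

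A further list of 37 alpha-granule proteins had 29 genes that passed the filter, of which 12 were called higher and 0 lower, beside 3.64% and 1.15% of all tested genes, and the median difference of the 29 was 0.91 on the log2 scale. Of the 29, 6 had too few counts in the empty vector libraries to pass the filter without RUNX1::ERG. LTBP1 is also counted among the 7 called receptors and partners. PF4 and PPBP, the major platelet chemokines, passed it through the RUNX1::ERG libraries alone, with 0 and 2 counts of PF4 and 2 and 6 of PPBP under the empty vector against 874 and 555, and 1553 and 1462. PF4 has a near copy, PF4V1, and reads shared between them were not tested. The chemokine CCL5 rose from 57 and 71 counts to 1141 and 701 (log2 fold change 3.57, adjusted p = 1e-04, edgeR). Among growth factors, EGF (2.63), PDGFB (1.54), ANGPT1 (1.07) and FGF2 (0.69) were called, while PDGFA (0.91, adjusted p = 0.062, edgeR), VEGFA (-0.01) and IGF1 (-0.07) were not. Among adhesive and clotting proteins, VTN (2.73), PROS1 (0.94) and FN1 (0.91) were called and SPARC (0.16) was not. The call of FN1 was lost without RUNX1::ERG replicate 2 (0.54, adjusted p = 0.32, edgeR), and that of FGF2 without empty vector replicate 2 or either RUNX1::ERG library (adjusted p from 0.10 to 0.15, edgeR). PECAM1, a membrane protein of granule and surface, rose by 2.96, whereas TREML1 had at most 2 counts. The fibrinogen genes FGA, FGB and FGG, whose product platelets take up from plasma, had at most 25 counts in a library.

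Of 20 genes that build and release granules 19 were tested, 2 were called higher and 1 lower, beside 3.64% and 1.15% of all tested genes, and the median log2 fold change was 0.21. NBEAL2 (0.48, adjusted p = 0.21, edgeR), VPS33B (0.00) and VIPAS39 (0.05), which are needed for alpha-granules to form, were expressed in all libraries without a call. RAB27B, a small GTPase of platelet granule secretion, rose from 165 and 160 counts to 977 and 1011 (log2 fold change 2.36, adjusted p = 0.00054, edgeR). Its paralog RAB27A fell from 271 and 153 to 103 and 116 normalised CPM (log2 fold change -0.95, adjusted p = 0.046, edgeR), and was at -0.49 (adjusted p = 0.18, edgeR) without empty vector replicate 1 and at -0.87 (adjusted p = 0.15, edgeR) without RUNX1::ERG replicate 1. The SNARE gene VAMP8 was at 0.61 (adjusted p = 0.047, edgeR), a call lost when any library was left out (adjusted p from 0.088 to 0.23, edgeR). Among 18 tested genes of dense granules and lysosome-related organelles 1 was called, HPS1 at 0.80 (adjusted p = 0.020, edgeR; 0.67 and 0.13 without RUNX1::ERG replicate 1), a share of 5.56% where 4.79% of all tested genes were called, and the median was 0.06.

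The closest family members of the cargo genes were mostly low or not called, with 2 of 12 tested genes called higher, beside 3.64% of all tested genes, and a median log2 fold change of 0.14. F8, which encodes the factor VIII that VWF carries and is a relative of F5, rose from 53 and 61 counts to 240 and 293 (log2 fold change 1.99, adjusted p = 0.011, edgeR; 0.051 without RUNX1::ERG replicate 2). MMRN2, the relative of MMRN1 known from endothelial cells, rose from 153 and 220 counts to 758 and 468 (log2 fold change 1.45, adjusted p = 0.017, edgeR; 0.17 without RUNX1::ERG replicate 1). THBS2, THBS4 and COMP had at most 30 counts in a library, and THBS3 was at 0.30 without a call. TGM2, a relative of F13A1, was abundant in all libraries and at 0.41 (adjusted p = 0.18, edgeR).

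Markers of other cells that express cargo genes were read in the same libraries. Their calls stand beside 3.64% of all tested genes called higher and 1.15% lower. Of 6 platelet markers 3 were tested, PF4, PPBP and TUBB1, and all 3 were called higher. PF4 and PPBP passed the filter through the RUNX1::ERG libraries alone. GP9, GP1BB and TREML1 had at most 2 counts. The summed level of the 6 was 57.9 and 71.1 normalised CPM with the empty vector and 161 and 171 with RUNX1::ERG, most of it TUBB1. Of 8 monocyte and macrophage markers 5 were tested, and CD14, CD68 and LYZ were called higher, by 3.24, 0.73 and 1.12. The other 2 tested, FCGR1A and ITGAM, were not called, and the lower of them was at -0.99. CD163 was at 0 counts, MRC1 at 2 or fewer and CSF1R at 18 or fewer, and the summed level was 62.1 and 71.0 against 125 and 110. Of 8 endothelial markers 5 were tested and 0 called, with TIE1 the lowest at -0.14. In 4 of the 5 both RUNX1::ERG libraries lay above both empty vector libraries, an order seen in 25.1% of all tested genes. The 4 were CDH5, with 0, 4, 27 and 12 counts (log2 fold change 2.96), EGFL7 (0.82), ESAM (0.73) and CLDN5 (0.70), with adjusted p from 0.065 to 0.58 by edgeR. CDH5 passed the filter through the RUNX1::ERG libraries alone, so its presence among the tested genes already depends on a difference. Its order cannot be set against the share of 25.1%. EMCN was at 0 counts, KDR and TEK at 2 or fewer, and the sum, nearly all EGFL7, was 133 and 160 against 322 and 194. Of 7 fibroblast markers 3 were tested. COL1A1 was called at 2.42, and COL1A2 and PDGFRB were at 0.11 and -1.09 with no call. Of the 3, 1 did not pass the filter on the empty vector libraries alone, and it was not called. The 4 untested ones, COL3A1, DCN, PDGFRA and LUM, had at most 12 counts in a library, with LUM at 0. The sum was 6.29 and 6.86 against 24.9 and 22.3, and COL1A1 went from a mean of 3.88 to 20.8 of it. All 4 libraries are labelled as K562 cells, and any part of other cell types in the cargo results was not tested. In bulk RNA, a few cells with much of a transcript and many cells with little of it cannot be told apart.

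The gene whose profile over the 4 libraries was closest to each tested cargo gene, by the distance between log2 values after subtracting each gene's mean, was FOXS1 for VWF (distance 0.584), F2RL2 for MMRN1 (0.385), SERPIND1 for THBS1 (0.245), RCN3 for CLU (0.0554), LGALS9 for TGFB1 (0.067) and BTK for SRGN (0.0263). F2RL2, which encodes the thrombin receptor PAR3, was at 0.531, 0.369, 19.3 and 17.5 normalised CPM. Within a distance of 0.25 lay 637 genes for SRGN, 50 for TGFB1, 20 for CLU, 1 for THBS1 and 0 for VWF and MMRN1, so that the gene named for SRGN, TGFB1 or CLU is 1 of many. These are the nearest of 13194 protein-coding genes over 4 libraries and describe a likeness of shape alone.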

How the data were processed

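Poly(A)-enriched RNA of K562 cells with the fusion or with the empty vector (2 libraries each) was sequenced. The authors deposited raw read counts per gene, listed by NCBI gene number, with no normalisation. The reference was hg19, and the submitters' processing notes name HISAT2 2.2.1 and featureCounts 2.0.1. The annotation, the strand setting and the counting of mates or pairs are not given in the sources used here, so overlapping and antisense genes are uncertain. Symbols came from RefSeq (GRCh38.p14), which matched 92.2% of the genes, and GENCODE v44 on GRCh37 gave positions, exon lengths and transcript GC.

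The tests on these counts were run in R 4.3.3 with edgeR 4.0.16 (TMM, filterByExpr, glmQLFit and glmQLFTest, Benjamini-Hochberg over 15394 genes, threshold 0.05), without a replicate block. Standard errors were the log2 fold change divided by the square root of F, and 95% intervals used the t quantile of the fit. No set test was made. Settings tried were DESeq2 size factors, library totals, other filters, the DESeq2 1.42.0 Wald test, limma 3.58.1 voom, a replicate block, halved counts, a GC correction in 20 bins (added after the data were seen) and leaving out each library. An exact permutation test of 2 against 2 libraries cannot go below 0.333, so p-values rest on the spread edgeR estimates across genes. The labels do not say how replicates were made, and the p-values cover only the kind of variation that these libraries hold. Intervals and the limit of 3 counts cover counting error only.

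The members and lists were chosen with earlier results of these data known. Named were all members, ERG and RUNX1, called genes of the lists, partners of a member, and the protein-coding gene nearest to each tested member (on log2 of normalised CPM plus 0.01); further uncalled or overlapping genes, and markers, were named after their values were seen.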

Additional observations from a re-analysis of the deposited data

How the results depend on the processing

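The number of cargo genes called was 4, and it was 2 when every library had to hold 10 counts or more, which leaves VWF and MMRN1 untested. It was 6 without the filter, 5 by the DESeq2 Wald test and from 3 to 5 with 1 library left out. In these fits 1 group holds a single library that is assumed to vary like the other group. Single genes were followed over the settings for 32 tested genes. They were the tested cargo genes, ERG, RUNX1 and the called genes of the lists other than markers. None of the 32 changed direction under any setting. All of them except SRGN and CLU had been called, so this choice favours a kept direction. Other named genes, such as VEGFA and VPS33B, were not followed. Of the values of the 32, 22 were no longer past the threshold (17 of them with a library left out). A further 7 were newly past it, 1 for SRGN and 6 for CLU.

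Without the filter, 5 granule biogenesis genes, 4 family members and 1500 of all genes were called, against 3, 2 and 737, and 64.1% of the 1500 were higher against 76.0% of the 737. limma voom called 1 granule biogenesis gene, and the DESeq2 Wald test called 1194 of all genes. With a library left out, calls ran from 1 to 5 for granule biogenesis, from 0 (without RUNX1::ERG replicate 1) to 1 for dense granules, from 1 to 6 for family members, from 5 to 9 for receptors and partners, from 11 to 18 for other alpha-granule proteins and from 286 (without RUNX1::ERG replicate 1) to 1336 for all genes. Of the 1336, called without empty vector replicate 2, 54.9% were higher, with 602 lower where 177 were lower with all libraries. The cause was not tested.

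With the replicate block, 7 granule biogenesis genes, 2 dense granule genes, 11 receptors and partners, 4 family members and 1733 of all genes (62.4% higher) were called, and all 6 tested cargo genes, with SRGN at 0.47 (adjusted p = 0.026, edgeR) and CLU at 1.20 (adjusted p = 0.017, edgeR). Same-numbered libraries deviated together over genes (r = 0.26), but the sources tie the numbers to no batch, day or culture, and the libraries were not treated as pairs. Depth limits what can be said of SELP, F13A1 and F5, which rest on 26, 6 and 2 counts in all.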
